A study of Mus musculus with 4 samples.

Results

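To examine where adipogenic transcripts reside in late fetal muscle, *Car3* and 9 genes of fat cell formation (*Pparg*, *Cebpa*, *Cebpb*, *Fabp4*, *Plin1*, *Adipoq*, *Lpl*, *Zfp423* and *Ebf2*) were followed by symbol among the 32285 features of 4 single-cell RNA libraries. *Car3* was selected on values of these same libraries, its opposite KO to WT differences in fibroblasts and in muscle cells, so those differences are given below as a description without a test. The other 9 genes were taken for their known roles. The libraries were made from leg muscles of mouse fetuses at E18.5, which came as littermates from matings of heterozygous parents, with 2 libraries from wild-type (WT) fetuses and 2 from knockout (KO) fetuses lacking *SYISL*, a long non-coding RNA that lies inside the gene *Synpo2*. The muscles were dissociated with trypsin and DNase I and red blood cells were lysed, and although the muscles of every fetus were taken separately, the number and sex of the fetuses behind each library were not stated. No feature carries the name *SYISL*, so the genotypes were taken from the labels with no check in these data.

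Fat cells form when mesenchymal precursors that carry *Pdgfra*, called fibro-adipogenic progenitors (FAPs) in muscle, commit to the adipocyte lineage and then fill with lipid. *Zfp423* and *Ebf2* encode transcription factors known from the committed precursor, *Cebpb* encodes an early inducer, and *Pparg* and *Cebpa* encode the pair of factors that sustain the differentiated state. Their known targets include *Fabp4*, a fatty acid chaperone, *Plin1*, the coat protein of the lipid droplet, *Adipoq*, the hormone adiponectin, and *Lpl*, lipoprotein lipase. *Car3* encodes carbonic anhydrase 3, a cytosolic enzyme abundant in both adipocytes and slow muscle fibres. On the mouse genome (GRCm38), *Car3* lies at chr3:14863512-14872523 on the plus strand, *Fabp4* at chr3:10204088-10208576 on the minus strand, *Adipoq* at chr16:23146536-23158028 on the plus strand and *Plin1* at chr7:79720218-79732903 on the minus strand.

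The 300 bases around the starts of *Adipoq* and *Plin1* are shown because these genes marked the rare cells described below. They run from 250 bases before to 50 bases after the start in RefSeq annotation of GRCm38.p6, at chr16:23146286-23146585 on the plus strand for *Adipoq* and at chr7:79732727-79733026 on the minus strand for *Plin1*, and are written 5′ to 3′ on the strand of the gene. Capitals mark each match of the E-box CANNTG and of the C/EBP motif TTGCNCAA on either strand.
Adipoq: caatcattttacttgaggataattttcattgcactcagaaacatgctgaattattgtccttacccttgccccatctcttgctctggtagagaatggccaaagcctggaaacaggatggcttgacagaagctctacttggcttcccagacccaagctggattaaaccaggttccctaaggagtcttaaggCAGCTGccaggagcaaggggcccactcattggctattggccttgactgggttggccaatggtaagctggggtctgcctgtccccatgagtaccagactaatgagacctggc
Plin1: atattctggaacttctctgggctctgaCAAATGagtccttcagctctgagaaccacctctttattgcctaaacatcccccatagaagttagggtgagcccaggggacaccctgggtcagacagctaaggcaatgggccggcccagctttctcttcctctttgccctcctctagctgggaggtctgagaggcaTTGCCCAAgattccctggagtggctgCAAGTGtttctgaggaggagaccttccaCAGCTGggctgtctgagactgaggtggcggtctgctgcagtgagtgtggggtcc
The *Adipoq* window held 1 E-box, at -61 from the start. The *Plin1* window held E-boxes at -223, -32 and -4 and the C/EBP motif as TTGCCCAA at -58. TATAAA and AGGTCA, also searched on both strands, matched in neither window. Among 32851 promoter windows of the same length, 72.3% held CANNTG, 2.94% held TTGCNCAA, 13.6% held TATAAA and 16.3% held AGGTCA, so the E-box was common and the C/EBP motif was not. Promoter entries were found for 6 of the 10 genes, and *Car3*, *Fabp4*, *Lpl* and *Ebf2* had none.

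A total of 41741 barcodes were deposited, and 36969 passed the limits on genes, UMIs (unique molecular identifiers, 1 per captured transcript) and mitochondrial UMIs, that is 8515 (WT replicate 1), 8177 (WT replicate 2), 9816 (KO replicate 1) and 10461 (KO replicate 2) cells. Median UMIs per cell lay between 9118 and 11427. Marker genes gave 18654 FAP-like, 6731 myogenic-like, 3289 chondrocyte-like, 1838 glial-like, 1753 smooth muscle or pericyte-like, 1336 endothelial-like, 1281 tenocyte-like, 1041 macrophage-like, 287 mast-like and 214 neutrophil-like cells, while 545 cells stayed unnamed. KO replicate 2 stood apart in its sex-linked transcripts. *Xist* was found in 98.2% of its cells and in at most 0.0587% of cells of the other libraries, and Y-linked transcripts in 1.00% against 85.8% to 89.9%. Library pairs shared 15 to 27 kept barcodes, none of them with the same UMI total. Expression levels are CPM, that is a gene's UMIs per 1000000 UMIs of all genes in a class and library, and are shown as mean ± SD over the 4 libraries unless stated. Transcripts were captured at their 3′ ends, with 1 UMI per molecule, so these levels are not per length and are compared within a gene.

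*Adipoq* and *Plin1* had the fewest UMIs of the 10 genes. Their mean levels were highest in a FAP-like sub-cluster of 3648 cells, named the *Pi16 Ly6a* subtype after its markers. There, *Adipoq* measured 4.95 and 14.2 CPM (WT) and 11.1 and 14.1 CPM (KO), a mean of 11.1 ± 4.33, against 0.235 ± 0.0142 CPM in the most numerous FAP-like sub-cluster. *Plin1* reached 2.65 ± 1.33 CPM in the *Pi16 Ly6a* subtype. Of the 49 deposited barcodes with UMIs of both *Adipoq* and *Plin1*, described below, 3 had *Ly6a* and 1 had *Pi16*. Without those kept in it, the subtype held 2.81 ± 2.26 CPM of *Adipoq* and 0.374 ± 0.200 CPM of *Plin1*. Cycling myogenic-like cells came second for both genes, with *Adipoq* between 0.135 and 12.6 CPM across libraries, so 1 library held most of it. *Adipoq* and *Plin1* had no UMI in mast-like and neutrophil-like cells or in a FAP-like sub-cluster of 198 cells led by *Lef1*.

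*Lpl* and *Ebf2* were transcripts of the fibroblasts, although *Lpl* was low in some FAP-like sub-clusters. *Lpl* was highest in the largest FAP-like sub-cluster, 8542 cells whose leading genes were contractile transcripts such as *Myl1* and *Acta1* and which therefore received no name, at 346 ± 43.7 CPM, with 301 CPM in its lowest library. Cycling FAP-like cells (249 ± 37.1 CPM), the *Pi16 Ly6a* subtype (221 ± 29.7) and the *Ccl11 Hhip* subtype (213 ± 15.9) followed with overlapping libraries. All of these lay above the macrophage-like cells at 96.3 ± 10.7 CPM. The *Lef1*-led sub-cluster averaged less, at 62.7 ± 20.8 CPM. So did an unnamed FAP-like sub-cluster of 1584 cells led by *Anxa8*, at 28.4 ± 10.8 CPM. *Ebf2* was highest in the *Lef1*-led sub-cluster at 785 ± 58.8 CPM, then in the *Ccl11 Hhip* subtype at 618 ± 46.8 and the contractile-led sub-cluster at 604 ± 42.1, which overlapped each other. Outside FAP-like cells it was found in smooth muscle or pericyte-like cells at 373 ± 29.4 CPM and in tenocyte-like cells at 312 ± 15.8 CPM, and it was at most 22.6 CPM on average in any myogenic-like stage.

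*Zfp423* was spread over the mesenchyme. Its mean level was 65.7 ± 2.44 CPM in tenocyte-like cells, above every FAP-like sub-cluster (35.9 to 55.0 CPM) and endothelial-like cells (54.1 ± 7.34). From the *Anxa8*-led sub-cluster at 55.0 ± 1.23 CPM down to cycling FAP-like cells at 35.9 ± 2.75 CPM, each class overlapped the next. Smooth muscle or pericyte-like cells held 20.0 ± 2.78 CPM, and myogenic-like stages 3.90 to 10.5 CPM.

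*Pparg*, *Cebpa*, *Cebpb* and *Fabp4* were each highest outside the fibroblasts. *Pparg* was at 92.7 ± 11.3 CPM in endothelial-like cells and 36.0 ± 10.1 CPM in macrophage-like cells, against 21.2 ± 6.44 CPM in the *Pi16 Ly6a* subtype, its highest FAP-like level, and 17.1 ± 5.72 CPM in the *Anxa8*-led sub-cluster. *Cebpa* was at 56.1 ± 6.56 CPM in macrophage-like cells, followed by the *Ccl11 Hhip* subtype (16.3 ± 4.23) and the *Pi16 Ly6a* subtype (13.3 ± 4.61), which overlapped. *Cebpb* was at 1817 ± 496 CPM in neutrophil-like cells and 882 ± 86.2 CPM in macrophage-like cells, and between 23.9 and 231 CPM on average elsewhere.

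*Fabp4* had the most UMIs of the 10 genes and lay mainly in endothelial-like cells. It stood at 18250 and 15763 CPM in WT and at 20747 and 14582 CPM in KO endothelial-like cells. Smooth muscle or pericyte-like cells held 615 ± 115 CPM and the *Pi16 Ly6a* subtype 139 ± 61.4 CPM, and no class averaged less than 36.1 CPM. Neutrophil-like cells ranged from 74.7 to 2259 CPM between libraries. How much of the *Fabp4* outside endothelial-like cells was free RNA in the droplets was not tested.

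**Figure D1:**
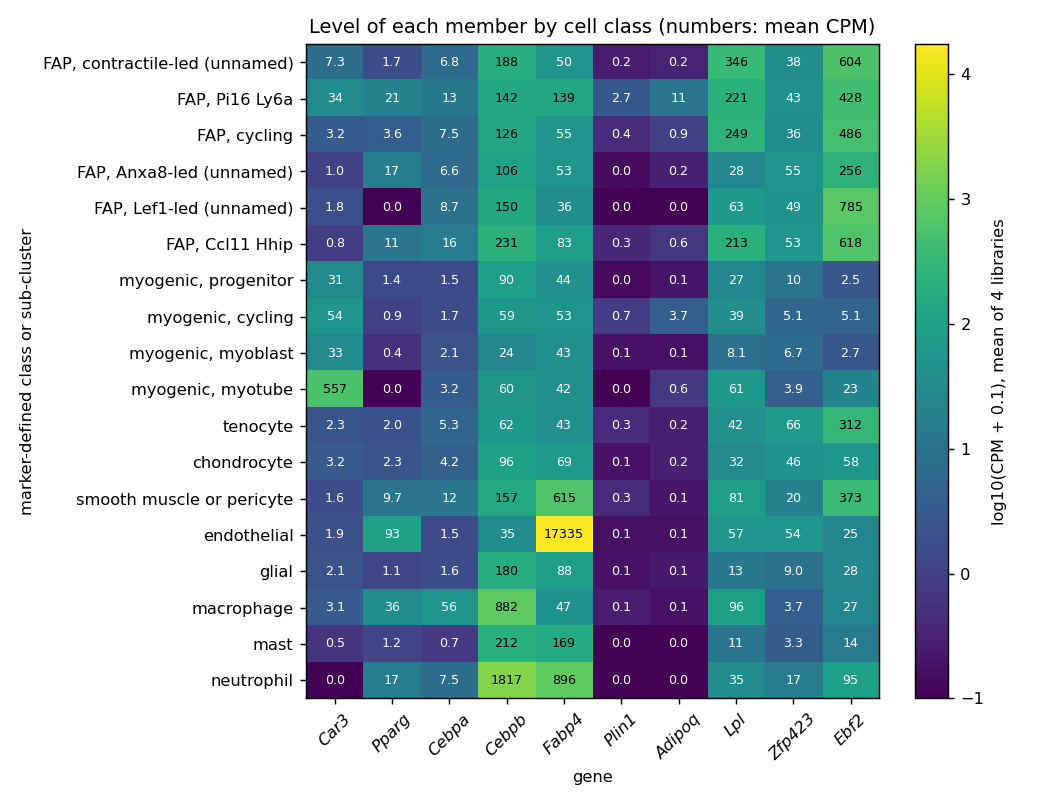
Level of each of the 10 genes by cell class, FAP-like sub-cluster and myogenic-like stage, as mean CPM over 4 libraries on a log scale with the value in each cell. *Fabp4* and *Pparg* are highest in endothelial-like cells, *Cebpa* in macrophage-like cells, *Cebpb* in neutrophil-like cells, *Lpl* and *Ebf2* in FAP-like sub-clusters, and *Car3* in myotube-like cells.

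*Car3* was a transcript of the muscle lineage with a further peak among fibroblasts, which lay mostly in few cells. In the 79 myotube-like cells it stood at 354 and 1418 CPM in WT and at 267 and 190 CPM in KO, from 55, 104, 41 and 73 UMIs. Cycling myogenic-like cells held 53.8 ± 13.1 CPM, myoblast-like cells 33.2 ± 8.44 CPM and progenitor-like cells 31.3 ± 14.9 CPM. The *Pi16 Ly6a* subtype, at 34.4 ± 13.3 CPM, overlapped these stages. Without its 16 cells with UMIs of both *Adipoq* and *Plin1*, the subtype held 7.36 ± 7.47 CPM. The 545 unnamed cells held 16.5 ± 9.91 CPM and the contractile-led FAP-like sub-cluster 7.26 ± 2.42 CPM. The other classes averaged at most 3.20 CPM, and no UMI was found in neutrophil-like cells. *Car3* had the most UMIs of the 16 carbonic anhydrase genes in both FAP-like cells (10.5 ± 3.99 CPM) and myogenic-like cells (43.4 ± 12.7 CPM).

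*Car3* was next set beside contractile transcripts. *Acta1*, *Ckm*, *Mylpf* and *Tnnt3* were among the markers that named the myotube-like stage. The lower ratio of that stage therefore follows from its naming, and no result is drawn from it. Per 1000 UMIs of *Acta1*, *Ckm*, *Myl1*, *Mylpf* and *Tnnt3* summed, *Car3* amounted to 3.42 to 13.2 UMIs in myotube-like cells, 22.8 to 44.98 in myoblast-like cells, 70.6 to 390 in progenitor-like cells and 227 to 486 in cycling myogenic-like cells. The contractile-led FAP-like sub-cluster held 534 to 1124 CPM of these 5 transcripts and 6.26 to 9.84 *Car3* UMIs per 1000 of them, within the range of myotube-like cells. Whether its *Car3* came from muscle RNA in the droplets was not tested.

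Across 15 classes, sub-clusters and stages, the genes whose log2(CPM + 1) was most correlated with that of each member were named, among 12903 genes, as a description (classes share libraries and free RNA). *Car3* was most like *Trp63* (Pearson r = 0.93), *Egf* (0.91) and *Mrps18a* (0.89), and *Fabp4* was most like the endothelial genes *Adgrf5* (0.97) and *Dll4* (0.97), then *Vsig2* (0.94). *Cebpb* was most like *Samhd1* (0.93), *Csf2ra* (0.92) and *Sema4a* (0.92), *Cebpa* most like *Ang* (0.94), *Ifi211* (0.92) and *Trafd1* (0.92), and *Pparg* most like *Dglucy* (0.92), *Irf9* (0.92) and *Mndal* (0.91). *Adipoq* had weaker matches, led by *Galnt13* (0.87), and so had *Lpl*, led by *Zfp385a* (0.88). *Zfp423* was most like *Gm49267* (0.93), and *Ebf2* most like *4930438E09Rik* (0.96). *Plin1* stayed under 10 CPM in every class and was left out.

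Single cells were next searched for several of these transcripts together. UMIs of both *Adipoq* and *Plin1* were found in 49 of the 41741 deposited barcodes. WT replicates contributed 3 and 12 of them and KO replicates 17 and 17. Only 20 of the 49 passed the cell limits, while 27 exceeded the limit of 25000 UMIs, 14 exceeded the limit of 6000 genes and 2 failed on mitochondrial UMIs alone. The 49 barcodes held a median of 26954 UMIs, from 3137 to 58461, and 1612 deposited barcodes in all exceeded 25000 UMIs. Scrublet, a doublet caller, marked 2 of the 20. Of the 20, 16 fell into the *Pi16 Ly6a* subtype, 2 into cycling FAP-like cells and 2 into cycling myogenic-like cells.

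The same barcodes carried nearly the whole set of differentiation genes, although only *Adipoq* and *Plin1* had chosen them. *Lpl* was found in 49 of 49, *Pparg*, *Cebpa* and *Fabp4* in 48 each, and *Car3* and *Cebpb* in 46 each. All 6 of *Pparg*, *Cebpa*, *Fabp4*, *Plin1*, *Adipoq* and *Lpl* occurred together in 47. The precursor factors were less frequent, with *Ebf2* in 30 and *Zfp423* in 23 barcodes. Detection depends on depth, and the other *Pi16 Ly6a* cells were shallower. Of those, 61.3% had *Cebpb*, 52.1% *Lpl*, 33.6% *Fabp4*, 11.8% *Pparg*, 8.92% *Cebpa* and 1.16% *Car3*, while 82.5% had *Ebf2* and 33.8% *Zfp423*. A barcode held from 0 to 703 *Car3* UMIs with a median of 62, a median of 195 *Fabp4* UMIs and a median of 30 *Adipoq* UMIs.

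Levels in these barcodes, of which 16 fell into the *Pi16 Ly6a* subtype, were set beside those of the 3632 other cells of that subtype. The 3632 cells had a median of 10124 UMIs. *Car3* was at 6339 and 2658 CPM in the WT barcodes and at 3364 and 5246 CPM in the KO barcodes, a mean of 4402 ± 1691, against 7.36 ± 7.47 CPM in the other cells. *Fabp4* was at 8527 ± 3039 against 79.2 ± 28.5 CPM, *Lpl* at 1556 ± 260.1 against 211 ± 28.5, *Pparg* at 367 ± 49.6 against 18.6 ± 6.23 and *Cebpa* at 301 ± 69.6 against 11.3 ± 3.47. Each of these genes was higher in all 4 libraries. *Ebf2* went the other way in all 4, at 94.7 ± 36.4 against 430 ± 49.9 CPM, and *Zfp423* was lower in 3 of 4, at 34.4 ± 26.3 against 43.6 ± 3.52 CPM. *Cebpb* was at 365 ± 201.7 against 140 ± 26.0 CPM, and in WT replicate 1 it was at 109 against 107 CPM.

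Among genes found in at least 25 of the barcodes, *Car3* had the highest ratio of CPM + 1 between these barcodes and the other *Pi16 Ly6a* cells. Behind *Car3* and the selecting *Adipoq* came *Retn*, the hormone resistin, at 331 ± 79.6 against 0.225 ± 0.382 CPM. *Cfd*, the protease adipsin, was at 369 ± 148.3 against 2.01 ± 3.87 CPM, *Acsl1*, a fatty acid activating enzyme, at 909 ± 290.6 against 7.27 ± 1.31, and *Pnpla2*, the first lipase of fat mobilisation, at 411 ± 92.6 against 4.66 ± 0.916. The carbonic anhydrases *Car13* and *Car5b* reached 56.6 and 69.8 CPM when all 49 barcodes were pooled. *Ucp1*, the uncoupling protein of brown fat, had no UMI in the 49 barcodes, which allows up to 2.09 CPM at 3 counts, and *Lep*, leptin, had 6 UMIs in 4.

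By group, 12 of 18 lipid storage and lipolysis genes were more than 5-fold higher in the 49 barcodes and 0 more than 5-fold lower, with a level under 3 UMIs taken as 3 UMIs. Of all 32285 features, 1.93% were higher and 2.52% lower by the same measure, of the 15361 with a UMI in these barcodes 4.05% and 4.95%, and of the 4805 found in at least 25 of them 4.37% and 0.832%. For fatty acid synthesis and uptake these numbers were 8 and 0 of 16, for adipokines 3 and 0 of 7, for adipogenic regulators 2 and 1 of 15, for lipoprotein lipase handling 2 and 0 of 11 and for thermogenic genes 1 and 0 of 8. They were 4 and 1 of 16 for carbonic anhydrases, and 2 and 0 of 6 for fatty acid binding proteins. Inhibitors of adipogenesis had 0 higher and 4 of 10 lower, among them *Dlk1*, a precursor surface protein lost on differentiation, at 571 ± 283.1 against 3878 ± 45.7 CPM. Preadipocyte surface markers had 1 higher and 5 of 9 lower. *Pdgfra* was at 36.4 ± 24.96 against 214 ± 11.5 CPM, *Ly6a* at 4.18 ± 8.35 against 570 ± 73.0 CPM and the collagen gene *Col1a1* at 887 ± 391.8 against 10017 ± 672.5 CPM. Of the 12 myogenic markers, 6 had a UMI in the barcodes, and they summed to 0 and 15.2 CPM in the WT and 304 and 48.3 CPM in the KO barcodes, against 39.3 to 63.7 CPM in the other *Pi16 Ly6a* cells. *Myod1*, a defining muscle factor, had no UMI and *Pax7*, of muscle stem cells, had 1, while *Acta1*, skeletal actin, had 122 UMIs in 18 barcodes, at 246 CPM in those of KO replicate 1. The part of muscle RNA in these levels was not tested.

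**Figure D2:**
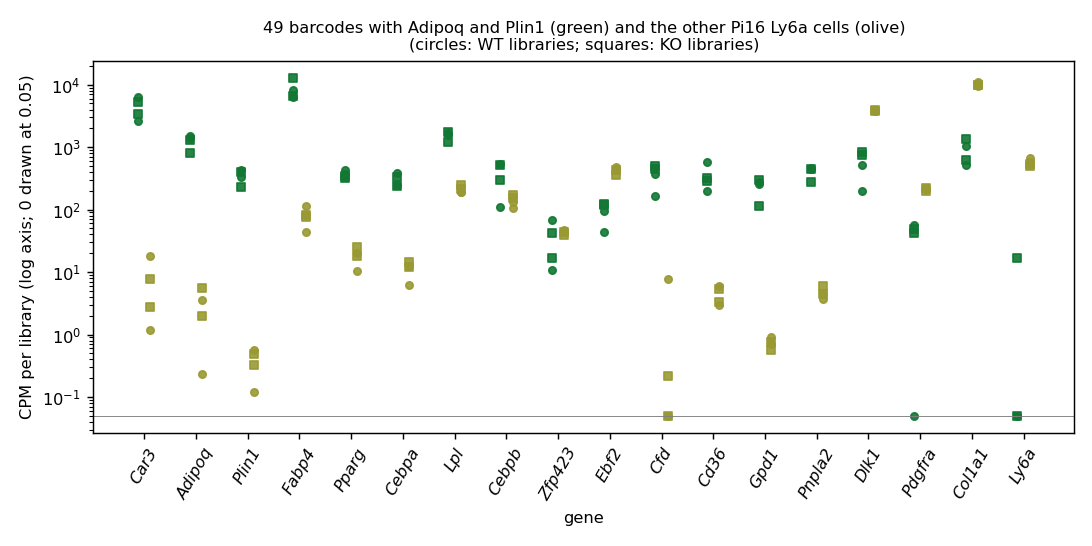
Levels of the 10 genes and further fat and fibroblast genes in barcodes with UMIs of both *Adipoq* and *Plin1* and in the other *Pi16 Ly6a* FAP-like cells, in CPM on a log scale, with 1 point per library. *Car3*, *Fabp4*, *Pparg*, *Cebpa* and *Lpl* lie higher in the barcodes in all 4 libraries, while *Ebf2*, *Dlk1*, *Pdgfra* and *Ly6a* lie lower.

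These 49 barcodes held a large part of some members' transcripts and little of others. They carried 5826 of 10954 deposited *Car3* UMIs, that is 53.2%, and by library 34.2% and 40.4% (WT) and 52.5% and 69.8% (KO). For *Adipoq* the part was 87.2% and for *Plin1* 85.4%, which follows from the choice of barcodes. It was 11.3% for *Cebpa*, 7.04% for *Pparg*, 3.17% for *Lpl*, 1.69% for *Fabp4*, 0.877% for *Cebpb*, 0.347% for *Zfp423* and 0.115% for *Ebf2*. Within FAP-like cells, 18 of 18654 cells held 52.9% of the *Car3* UMIs. In myogenic-like cells, 1 cycling cell with *Adipoq* and *Plin1* held 202 of the 823 *Car3* UMIs of KO replicate 1.

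A looser criterion was then applied. UMIs of at least 4 of the 6 differentiation genes were found in 156 kept cells, among them the 20 kept barcodes with *Adipoq* and *Plin1*. Of the 156, 82 were *Pi16 Ly6a* cells (16 of them with *Adipoq* and *Plin1*), 20 macrophage-like, 16 cycling FAP-like (2 with both), 13 smooth muscle or pericyte-like, 9 *Ccl11 Hhip* and 8 endothelial-like. No such cell was found among the 8542 contractile-led FAP-like cells. *Adipoq* without *Plin1* occurred in 112 kept cells, 96 of them with 1 UMI. At least 10 *Car3* UMIs were found in 58 kept cells, of which 15 had *Adipoq* and *Plin1*, and these 58 included 16 *Pi16 Ly6a*, 14 cycling myogenic-like, 8 progenitor-like and 8 myotube-like cells.

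Whether cells with *Adipoq* and *Plin1* differed in number between genotypes was compared over libraries. Per 10000 deposited barcodes they numbered 3.07 and 12.6 in WT and 15.8 and 14.6 in KO, so the groups did not overlap. Per 10000 kept cells they numbered 1.17 (exact Clopper-Pearson 95% interval 0.0297 to 6.54) and 4.89 (1.33 to 12.5) in WT and 10.2 (4.89 to 18.7) and 4.78 (1.55 to 11.2) in KO, and the groups overlapped. These intervals cover counting error only. The exact two-sided permutation p was 0.3333 over deposited barcodes, the smallest that 6 arrangements allow, and 0.667 over kept cells. Without KO replicate 2 the difference was 7.15 per 10000 kept cells, against 4.45 with it, and without KO replicate 1 it was 1.75. Cells with at least 4 of the 6 differentiation genes numbered 21.1 and 53.8 per 10000 in WT and 64.2 and 29.6 in KO (exact permutation p = 0.667), which overlapped widely. When each cell was thinned to 2000 UMIs, cells with *Adipoq* and *Plin1* numbered 1 and 1 in WT and 2 and 2 in KO, too few to compare.

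**Figure D3:**
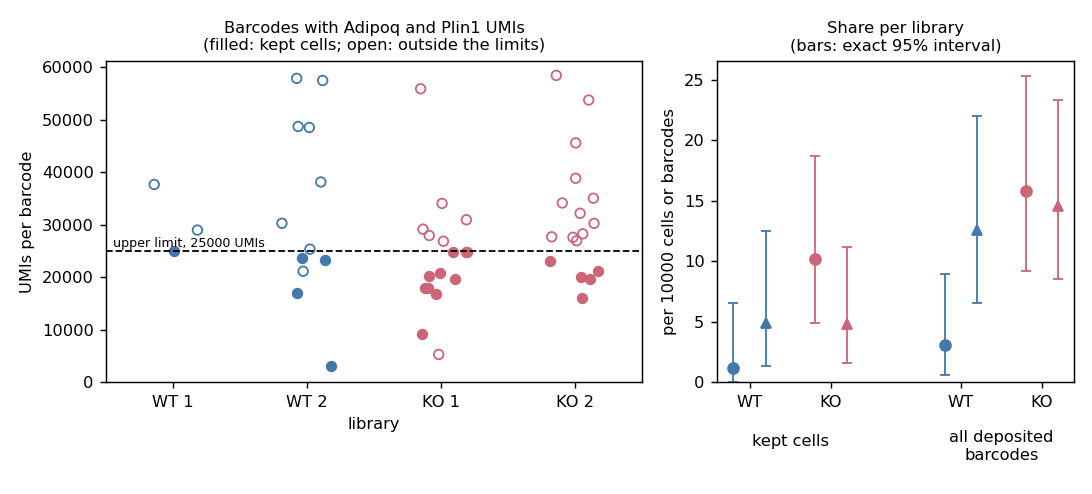
Barcodes with UMIs of both *Adipoq* and *Plin1* per 10000 in each library, over all deposited barcodes and over kept cells, with exact 95% intervals. The KO libraries lie above both WT libraries over deposited barcodes (15.8 and 14.6 against 3.07 and 12.6) but not over kept cells.

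*Car3* was then compared between genotypes, as a description, since it was selected on these values. In FAP-like cells it stood at 6.43 and 7.88 CPM in WT and at 14.8 and 12.9 CPM in KO. The log2 difference was 0.99 and the groups did not overlap. Once the 18 cells with *Adipoq* and *Plin1* were left out, *Car3* stood at 3.59 and 5.57 CPM in WT and at 4.52 and 6.21 CPM in KO. The groups then overlapped, with a log2 difference of 0.27. In the *Pi16 Ly6a* subtype, *Car3* stood at 17.1 and 30.9 CPM in WT and 43.1 and 46.4 CPM in KO (log2 difference 0.91). Without the cells with *Adipoq* and *Plin1* these values became 1.18 and 17.8 CPM in WT and 2.80 and 7.67 CPM in KO. The log2 difference was then -0.89, with overlapping groups. With all cells, the 0.91 was 0.57 without WT replicate 1 and 1.39 without WT replicate 2. The higher *Car3* of the KO fibroblasts was thus held mostly by 14 KO and 4 WT cells. Single cells weighed heavily in every library. The FAP-like cell with the most *Car3* held 348 of 759 UMIs in KO replicate 1 and 235 of 707 in KO replicate 2. In WT it held 135 of 305 UMIs in replicate 1 and 99 of 401 in replicate 2. In FAP-like cells the log2 difference was 1.09 without KO replicate 2, and 0.79 among cells with at most 1 UMI of the 12 myogenic markers.

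In the myogenic-like class, WT libraries held 46.5 and 57.5 CPM of *Car3* and KO libraries 43.1 and 26.8 CPM, a log2 difference of -0.53. Without the 2 cells with *Adipoq* and *Plin1* the values were 46.5 and 56.1 CPM in WT and 32.5 and 26.8 CPM in KO, a log2 difference of -0.75. The difference was -0.24 without KO replicate 2 and -0.89 without KO replicate 1, so its size rested on single libraries. Progenitor-like cells (31.9 and 50.9 CPM in WT, 27.4 and 14.9 CPM in KO) and myoblast-like cells (39.5 and 39.3 CPM in WT, 32.5 and 21.5 CPM in KO) had both KO libraries lower. Cycling myogenic-like cells (60.2 and 57.8 CPM in WT, 62.9 and 34.5 CPM in KO) overlapped, but without the 2 cells with *Adipoq* and *Plin1* they stood at 60.2 and 53.8 CPM in WT and at 33.8 and 34.5 CPM in KO, with both KO libraries lower.

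Cells were thinned to 2000 UMIs each to obtain the share with a *Car3* UMI. Of myogenic-like cells, 6.09% and 7.48% (WT) and 4.87% and 3.38% (KO) had one. Of FAP-like cells, 0.704% and 0.519% (WT) and 0.951% and 0.990% (KO) had one, within the range of classes that should lack the gene, such as tenocyte-like (0 to 0.949%) and macrophage-like cells (0 to 1.63%), so no difference was read from these shares. Part of the *Car3* of FAP-like cells lay in single cells with many UMIs, since 16 *Pi16 Ly6a* and 3 contractile-led cells held at least 10.

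**Figure D4:**
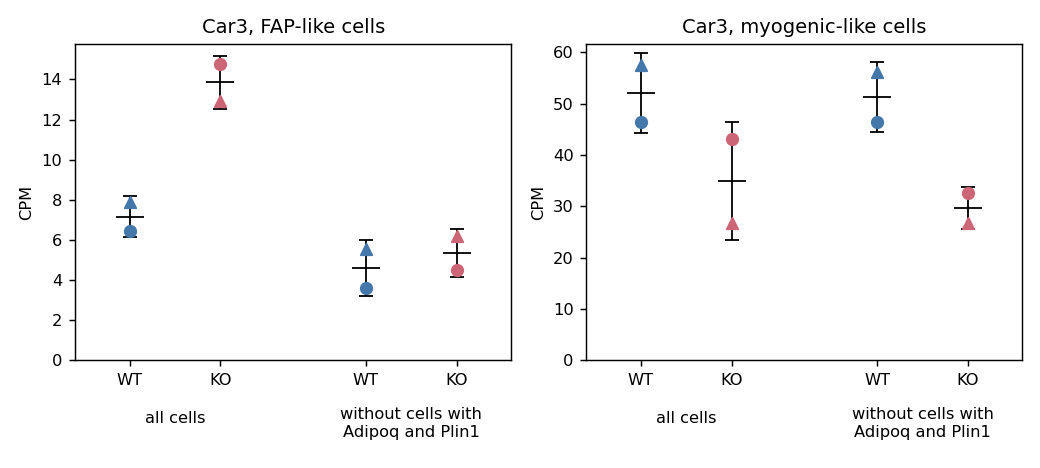
*Car3* level in CPM in each library for FAP-like cells and myogenic-like cells, with all cells and without cells that hold UMIs of both *Adipoq* and *Plin1*. The KO libraries lie above WT in FAP-like cells (14.8 and 12.9 against 6.43 and 7.88) and overlap WT once 18 cells are left out.

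For the other 9 genes, the KO effect was tested in UMIs summed per library by edgeR with Benjamini-Hochberg adjustment over all genes of a class. Of 114 gene and class combinations in 17 classes, sub-clusters and stages, 0 passed an adjusted p of 0.05, while 20 had an unadjusted p under 0.05, 19 of them higher in KO. The 17 share libraries and in part cells, so these combinations are not independent. Leaving out a single library leaves 1 library in an arm, so only effect sizes are given for the members in those fits. Among all genes, the share passing was 0% in FAP-like cells (0 of 18360), myogenic-like cells (0 of 14716), chondrocyte-like, glial-like and macrophage-like cells and in each FAP-like sub-cluster and myogenic-like stage tested. It was 0.017% in endothelial-like, 0.0981% in mast-like, 0.126% in smooth muscle or pericyte-like and 0.00862% in tenocyte-like cells, so few genes of any kind passed. DESeq2 called 7 genes in FAP-like and 2 in myogenic-like cells. At an unadjusted edgeR p under 0.05, 260 genes were higher and 278 lower in KO FAP-like cells, and 292 higher and 244 lower in KO myogenic-like cells. Higher and lower were 95 and 113 of 14251 in chondrocyte-like, 230 and 236 of 12882 in glial-like and 234 and 267 of 11307 in macrophage-like cells. They were 221 and 197 of 11747 in endothelial-like and 288 and 320 of 11603 in tenocyte-like cells. Mast-like cells had 348 and 144 of 7137, and smooth muscle or pericyte-like cells 418 and 303 of 12680.

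In FAP-like cells the 6 differentiation genes were all above 0 on the log2 scale, with a median of 0.30 against -0.00066 over all genes tested, and none passed. With the precursor factors and *Cebpb*, 7 of 9 were above 0. The 18 cells with *Adipoq* and *Plin1* (14 KO and 4 WT) held 65.7% of the *Adipoq* and 67.8% of the *Plin1* UMIs of FAP-like cells. They held 17.3% for *Fabp4*, 7.83% for *Pparg*, 5.01% for *Cebpa* and 0.888% for *Lpl*. *Plin1* stood at 0.295 and 0.530 CPM in WT and at 0.974 and 0.951 CPM in KO, a log2 difference of 1.25 (SE 0.32, edgeR adjusted p = 1.00) that fell to 0.57 without the 18 cells. *Adipoq* stood at 1.08 and 2.75 CPM in WT and at 3.31 and 2.78 CPM in KO (log2 difference 0.70, SE 0.40). Both KO libraries were higher for the pair, on few UMIs, but for *Adipoq* KO replicate 2 (2.78 CPM) was nearly level with WT replicate 2 (2.75 CPM). How many genes of any kind have both KO libraries higher was not counted, so no result is drawn from it. When single libraries were left out, *Adipoq* ranged from 0.19 (without WT replicate 1) to 1.53 (without WT replicate 2) and *Plin1* from 0.90 to 1.73 (without the same libraries).

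*Cebpb* was at 138 and 158 CPM in WT and at 183 and 171 CPM in KO FAP-like cells (log2 difference 0.30, SE 0.08, edgeR adjusted p = 1.00). *Fabp4*, at 54.1 and 74.9 CPM in WT and at 86.5 and 70.1 CPM in KO, differed by 0.32 (SE 0.17), with overlapping groups. Without the cells with *Adipoq* and *Plin1* it stood at 53.2 and 62.0 CPM in WT and at 68.4 and 54.0 CPM in KO. *Pparg* differed by 0.29 (SE 0.16), *Cebpa* by 0.25 (SE 0.16) and *Lpl* by 0.13 (SE 0.17), also overlapping. These sizes rested on single libraries, with *Fabp4* from 0.11 (without WT replicate 1) to 0.56 (without WT replicate 2), *Cebpa* from 0.080 to 0.45 (without the same libraries), *Pparg* from 0.083 (without KO replicate 1) to 0.47 (without KO replicate 2) and *Lpl* from -0.058 (without WT replicate 2) to 0.36 (without WT replicate 1). The precursor factors had log2 differences below 0, *Zfp423* at 44.7 and 42.9 CPM in WT and 38.4 and 39.6 CPM in KO (log2 difference -0.13, SE 0.07) and *Ebf2* with overlapping groups (-0.06, SE 0.11).

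In myogenic-like cells *Cebpb* stood at 62.5 and 60.1 CPM in WT and at 79.4 and 66.7 CPM in KO (log2 difference 0.29, SE 0.09, edgeR adjusted p = 0.965). *Ebf2* was at 3.40 and 2.04 CPM in WT and at 5.55 and 4.17 CPM in KO (log2 difference 0.87, SE 0.28, edgeR adjusted p = 0.965). Single libraries moved both, *Cebpb* between 0.18 (without KO replicate 1) and 0.40 (without KO replicate 2) and *Ebf2* between 0.55 (without WT replicate 2) and 1.30 (without WT replicate 1). The 12 FAP markers summed to 809 and 684 CPM in WT and 853 and 834 CPM in KO myogenic-like cells, none of them at 0, and their part in the *Ebf2* result was not tested. *Adipoq* had 2 and 11 UMIs in WT and 87 and 4 UMIs in KO, and the 87 fell to 1 when the single KO replicate 1 cell with *Adipoq* and *Plin1* was left out. *Cebpb* was above 0 on the log2 scale in all 17 classes, sub-clusters and stages tested, which share libraries and in part cells, and *Zfp423* in 1 of 16. How many genes of any kind keep their sign over these was not counted, so no result is drawn from these counts. In cycling FAP-like cells *Fabp4* stood at 43.1 and 42.1 CPM in WT and at 74.3 and 60.7 CPM in KO (log2 difference 0.68, SE 0.11, edgeR adjusted p = 0.644). The log2 difference was 0.82 without KO replicate 2.

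In endothelial-like cells, where *Fabp4* and *Pparg* were highest, the groups overlapped for both. *Fabp4* differed by 0.06 on the log2 scale (SE 0.13), *Pparg* by -0.02 (SE 0.14) and *Lpl*, at 60.5 and 48.5 CPM in WT and 84.6 and 36.0 CPM in KO, by 0.17 (SE 0.30), all with an edgeR adjusted p of 0.999. Without KO replicate 2, the log2 difference was 0.30 for *Fabp4* and 0.64 for *Lpl*. Without KO replicate 1 the log2 differences were -0.22 and -0.59, so the 2 KO libraries pointed in opposite directions. The 6 erythroid markers summed to 4696 CPM in KO replicate 2 endothelial-like cells against 279 to 806 CPM in the others, and their part was not tested.

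In mast-like cells *Ebf2* stood at 1.45 and 1.39 CPM in WT and at 35.7 and 18.4 CPM in KO, from 1, 1, 33 and 17 UMIs (log2 difference 4.11, SE 0.71, edgeR adjusted p = 0.144). Without WT replicate 1 the log2 difference was 4.17 and without WT replicate 2 it was 4.06. The 12 FAP markers summed to 917 and 667 CPM in the WT and 2391 and 2292 CPM in the KO mast-like cells, none of them at 0, and their part in the result was not tested. The 7 genes called in these cells included the FAP markers *Dcn* and *Col1a1*. Of the lists around the members, 3 genes passed in smooth muscle or pericyte-like cells, *Rbp4*, a retinol carrier counted as an adipokine (log2 difference 2.19, edgeR adjusted p = 0.0173), *Pdgfra* (1.69, edgeR adjusted p = 0.0280) and *Klf2*, an inhibitor of adipogenesis (0.50, edgeR adjusted p = 0.0280). The FAP markers, of which *Pdgfra* is one, summed to 2742 and 2206 CPM in WT and 4292 and 3515 CPM in KO there, which was not tested as a source.

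**Figure D5:**
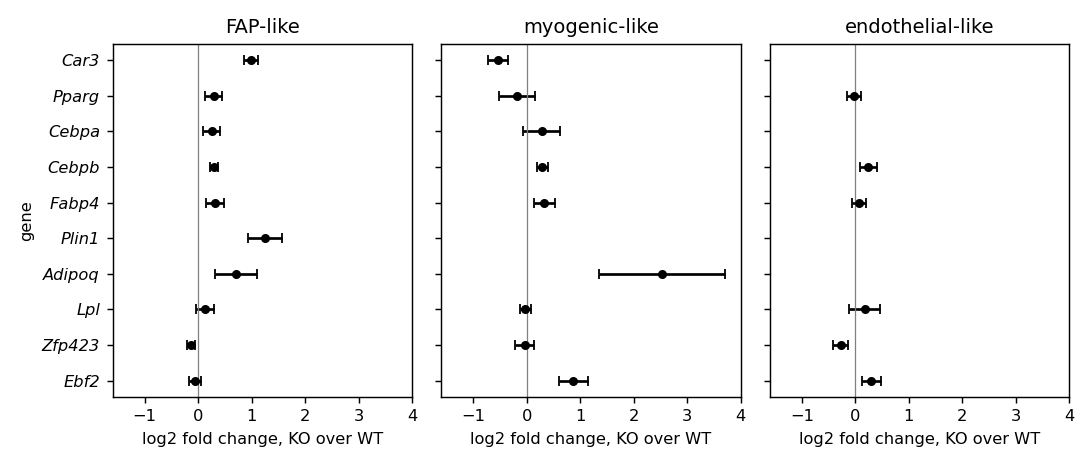
KO minus WT log2 difference of each gene in FAP-like, myogenic-like and endothelial-like cells with its SE from edgeR, over all kept cells of each class. No test is read from the SE drawn for *Car3*, which was selected on these values. *Plin1* was too low to test in myogenic-like cells, and *Car3*, *Cebpa*, *Plin1* and *Adipoq* in endothelial-like cells. The *Car3* value of 0.99 in FAP-like cells was 0.27 without cells that hold UMIs of both *Adipoq* and *Plin1*.

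Other genes of the pathway, taken from lists around the members, had 0 calls in FAP-like, myogenic-like and endothelial-like cells. In FAP-like cells, 8 of 15 adipogenic regulators had a KO minus WT log2 difference above 0 and 7 below (median 0.02). Above 0 were also 8 of 10 inhibitors of adipogenesis (0.08), 9 of 16 tested lipid storage and lipolysis genes (0.02) and 11 of 15 tested genes of fatty acid synthesis and uptake (0.05). Adipokines had 4 of 6 above (0.09), thermogenic genes 2 of 6 (-0.14), preadipocyte surface markers 4 of 9 (-0.0049), lipoprotein lipase handling 2 of 8 (-0.23), carbonic anhydrases 5 of 13 (-0.15) and fatty acid binding proteins 3 of 4 (0.19). In these lists the gene with the most UMIs in FAP-like cells was *Dlk1* among the inhibitors (3737 ± 219.1 CPM), *Ebf1* among the regulators (1223 ± 73.2), *Fabp5* for fatty acid uptake (774 ± 39.2), *Rarres2*, chemerin, among the adipokines (149 ± 17.5) and *Plin3* for lipid storage (101 ± 4.60). In myogenic-like cells the lists' medians lay between -0.09 for lipoprotein lipase handling and 0.33 for fatty acid binding proteins, against 0.0016 over all genes tested.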

How the data were processed

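The files hold raw UMI counts per gene and barcode, which the authors deposited without normalization. The submitters' processing notes name Cell Ranger 7.2.0 and mm10. Whether intronic reads were counted is not given in the sources used here. The study's limits on cells were applied: genes between 1000 and 6000, UMIs between 1000 and 25000, mitochondrial share below 8%. The study's Harmony step and a doublet caller were not used. Scrublet was an alternative.

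Cells were clustered on 3000 variable genes without the 10 genes (30 principal components, 20 neighbours, resolution 0.3, scanpy 1.11.5, Python 3.11.15). A cluster took a class name where at least 3 of its markers were 2-fold higher than in all other cells (for FAP-like cells, at least 5 markers at 25% of the highest cluster), and sub-clusters were named from 3 markers at 1.5-fold. Names are rebuilt and can differ from the study's.

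UMIs were summed per library and class with at least 50 cells in every library and tested with edgeR 4.0.16 in R 4.3.3 (quasi-likelihood, TMM, filterByExpr, Benjamini-Hochberg, threshold 0.05). SE values derive from the F statistic. DESeq2 1.42.0 was an alternative. No p or SE is given in the text for *Car3* by genotype, since the SE would restate the F test. The 10 genes, the lists and the tests were chosen with earlier results of these data known, and the text names the 10 genes, called list genes, those with the most UMIs and the 3 genes most correlated with each. The muscles of each fetus were isolated separately, but how fetuses were assigned to libraries is not stated, so p-values measure only the spread between libraries. In simulated data, edgeR recovered 72% of 200 genes changed 2-fold in FAP-like cells (18360 genes), 83.5% in myogenic-like cells (14716) and 78% in endothelial-like cells (11747). It made 17, 22 and 16 false calls there. The changed genes were drawn above a minimum count and with the spread that edgeR had estimated, so these shares need not hold for rare transcripts. Promoter sequences are from RefSeq (GRCm38.p6), and gene positions were matched for 32235 of 32285 features. Thinning to 2000 UMIs left out 20 to 57 shallower cells per library.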

Additional observations from a re-analysis of the deposited data

Results flagged for a closer look

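*Car3* moved in opposite directions with genotype in FAP-like and in myogenic-like cells, with KO minus WT log2 differences of 0.99 and -0.53. Each KO library was higher than each WT library in FAP-like cells and lower than each in myogenic-like cells. The difference between the classes was not tested, since *Car3* was selected on it, and 0.27 remained in FAP-like cells without 18 cells that held UMIs of both *Adipoq* and *Plin1*.

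Barcodes with UMIs of both *Adipoq* and *Plin1* were also found outside the limits on cells, in data that the comparisons of kept cells do not use. Per 10000 such barcodes they numbered 74.4 in KO replicate 1 and 99.3 in KO replicate 2, against 15.7 and 59.2 in the WT libraries, from 7, 12, 2 and 8 barcodes.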

How the results depend on the processing

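The members other than *Car3* had 254 alternative values of their KO minus WT log2 differences in FAP-like, myogenic-like and endothelial-like cells (23 results). Of these, 234 kept their direction and side of the threshold. Alternatives for *Car3* are given apart below. Of 70 alternative levels, 69 moved by less than the SD over the 4 libraries. The exception among levels was *Zfp423* in tenocyte-like cells, at 57.4 CPM when the members could serve as variable genes against 65.7. DESeq2 called 7 genes in FAP-like, 2 in myogenic-like and 5 in endothelial-like cells, where edgeR called 0, 0 and 2. In endothelial-like cells 97 genes were called with all genes of at least 1 UMI and 0 with the looser cell filter. Leaving out each library in turn, which leaves 1 library in an arm and assumes that it varies like the others, gave 0 to 7, 0 to 4 and 2 to 147 calls in the 3 classes, and 409 to 814 in the other classes, sub-clusters and stages together against 24. The 7 calls came without KO replicate 1, the 4 and 147 likewise, 72 endothelial calls without KO replicate 2 and 17 without WT replicate 1. The cause was not tested.

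*Car3* in FAP-like cells lay between 0.86 and 1.14 when single libraries were left out, at 1.31 without Scrublet doublets and at 0.27 without cells with *Adipoq* and *Plin1*, an alternative chosen after seeing the data. In myogenic-like cells it lay between -0.89 and -0.24. Signs turned when single libraries were left out for *Lpl* (-0.058 to 0.36) and *Ebf2* (-0.19 to 0.062) in FAP-like cells, for *Cebpa* (-0.12 to 0.59), *Fabp4* (-0.046 to 0.63), *Adipoq* (-0.93 to 4.18), *Lpl* (-0.11 to 0.067) and *Zfp423* (-0.23 to 0.20) in myogenic-like cells, and for *Pparg* (-0.26 to 0.17), *Fabp4* (-0.22 to 0.30) and *Lpl* (-0.59 to 0.64) in endothelial-like cells. The looser cell filter turned *Lpl* in myogenic-like cells (0.036) and *Ebf2* in endothelial-like cells (-0.088). Cells with at least 4 differentiation genes differed by -7.84 to 26.7 per 10000 without single libraries, against 9.43, and the sign turned without KO replicate 1 (-7.84) and without WT replicate 1 (-6.90).

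The labels give the libraries only shared replicate numbers, in 2 pairs, so they were not treated as paired. Deviations of same-numbered libraries correlated at 0.19 in FAP-like, 0.07 in myogenic-like and 0.04 in endothelial-like cells. The replicate block gave 0 calls in FAP-like, 4 in myogenic-like and 18 in endothelial-like cells. *Car3* was at 0.99 in FAP-like and -0.56 in myogenic-like cells with the block. With 2 libraries per genotype and under 20 UMIs of *Adipoq* or *Plin1* in many classes, small differences of rare transcripts were not detectable.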
